A study of Homo sapiens with 8 samples.

Results

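The nuclear-encoded subunits of the oxidative phosphorylation (OXPHOS) complexes were described in RNA-seq of 8 cultures, 4 control and 4 treated with sodium benzoate (SB). Members were taken from a gene table by symbol, namely NDUFA, NDUFB, NDUFC, NDUFS and NDUFV genes with a number, SDHA to SDHD, symbols that begin with UQCR, COX4 to COX8 or ATP5, and CYC1 and CYCS. The rule took 83 of 14526 rows. Of these rows, 79 hold a structural subunit or cytochrome c, with 36 for complex I, 4 for complex II, 10 for complex III, 13 for complex IV, 15 for complex V and 1 for cytochrome c. NDUFA4 and its paralogue NDUFA4L2 were counted with complex IV, where NDUFA4 is now placed. The other 4 rows are 2 transcripts with an antisense symbol and 2 genes with an ATP5 symbol that encode no structural subunit.

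SB is a food preservative that cells convert to benzoyl CoA, and the study asked how it alters histone benzoylation and gene expression. Cultures labelled HepG2, a line from a human liver carcinoma, were grown in DMEM with serum and received 10 mM SB for 24 h (n = 4) or no SB (n = 4), and the labels give no genetic change for either group. The paper describes the 4 cultures of a condition as biological replicates. RPKM, the unit used here, is the read count divided by the length of the gene and the size of the library. Whole reads could be recovered from the table, and each library held between 36990091 and 44878446 reads on the 14526 genes. The 4 controls are called control replicates 1 to 4 and the 4 SB-treated cultures SB-treated replicates 1 to 4. Control replicate 1 stood apart from the other controls over all genes (chi-square per degree of freedom on the recovered reads between 33.4 and 38.4, against 1.52 to 3.81 for other pairs within a group). Of 19 hepatocyte marker genes, 16 have no row in the table, ALB, APOA1, APOB, TTR, AFP, SERPINA1, HNF4A and FOXA2 among them. ASGR1, TF and CYP3A5 have a row, and their summed level was between 1.65 and 1.82 RPKM in the controls and between 2.41 and 2.70 RPKM in the SB-treated replicates. The part of this difference in the results was not tested. The marker levels go against the label, and the cultures are called control and SB-treated cells below.

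Oxidative phosphorylation takes place in the inner mitochondrial membrane. Complex I (NADH dehydrogenase) and complex II (succinate dehydrogenase) pass electrons to ubiquinone, complex III passes them to cytochrome c, and complex IV (cytochrome c oxidase) passes them to oxygen. Complexes I, III and IV pump protons, and complex V (ATP synthase) uses the gradient to make ATP. The subunits come from the nuclear and the mitochondrial genome, and the 13 subunits encoded in mitochondrial DNA have no row in the table, so the nuclear subunits alone were measured.

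The promoters of many OXPHOS genes are known to hold sites for the factors NRF1, GABPA (an ETS factor) and YY1. Windows of 250 bases before to 30 bases after the transcription start (RefSeq, GRCh38.p14) were at hand for 65 of the 79 genes. The windows shown are those of the subunit with the largest fall in each complex and of COX6B1, the abundant subunit that rose, all 5′ to 3′ on the strand of the gene. The window of NDUFS7 is chr19:1383657-1383936 (plus strand), that of SDHB chr1:17054003-17054282 (minus), that of UQCR11 chr19:1605433-1605712 (minus), that of COX5B chr2:97645812-97646091 (plus), that of ATP5I chr4:674247-674526 (minus) and that of COX6B1 chr19:35648073-35648352 (plus). Capitals mark matches on either strand to an NRF1-like motif (GCGCANGCG), an ETS-like motif (CCGGAAG) and a YY1-like motif (AANATGGC).
NDUFS7: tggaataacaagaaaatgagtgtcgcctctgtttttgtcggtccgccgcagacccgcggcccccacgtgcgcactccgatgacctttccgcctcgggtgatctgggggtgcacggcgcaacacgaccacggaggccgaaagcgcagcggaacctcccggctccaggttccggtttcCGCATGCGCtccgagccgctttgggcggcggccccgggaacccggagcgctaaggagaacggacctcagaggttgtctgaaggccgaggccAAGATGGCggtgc
SDHB: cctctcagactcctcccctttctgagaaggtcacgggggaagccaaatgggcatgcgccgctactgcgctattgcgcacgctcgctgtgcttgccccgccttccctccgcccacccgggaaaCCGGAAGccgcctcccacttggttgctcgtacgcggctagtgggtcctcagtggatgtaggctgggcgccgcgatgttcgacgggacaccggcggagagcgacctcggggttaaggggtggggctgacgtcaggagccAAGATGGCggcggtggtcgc
UQCR11: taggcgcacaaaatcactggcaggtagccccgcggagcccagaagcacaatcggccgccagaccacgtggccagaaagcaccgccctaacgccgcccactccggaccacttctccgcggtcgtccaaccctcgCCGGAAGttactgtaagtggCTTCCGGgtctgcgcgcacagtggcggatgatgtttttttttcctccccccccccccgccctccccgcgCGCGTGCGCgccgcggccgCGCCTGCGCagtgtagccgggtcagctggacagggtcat
COX5B: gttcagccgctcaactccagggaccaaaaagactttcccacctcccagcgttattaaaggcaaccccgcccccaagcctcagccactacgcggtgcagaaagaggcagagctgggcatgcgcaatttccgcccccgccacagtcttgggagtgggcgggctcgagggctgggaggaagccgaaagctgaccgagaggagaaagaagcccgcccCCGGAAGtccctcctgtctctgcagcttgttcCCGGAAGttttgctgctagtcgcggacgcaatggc
ATP5I: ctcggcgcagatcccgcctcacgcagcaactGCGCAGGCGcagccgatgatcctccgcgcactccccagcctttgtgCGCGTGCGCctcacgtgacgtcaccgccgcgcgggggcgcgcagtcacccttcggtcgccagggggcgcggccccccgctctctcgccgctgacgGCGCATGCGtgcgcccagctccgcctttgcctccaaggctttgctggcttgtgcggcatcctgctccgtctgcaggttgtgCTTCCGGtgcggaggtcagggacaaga
COX6B1: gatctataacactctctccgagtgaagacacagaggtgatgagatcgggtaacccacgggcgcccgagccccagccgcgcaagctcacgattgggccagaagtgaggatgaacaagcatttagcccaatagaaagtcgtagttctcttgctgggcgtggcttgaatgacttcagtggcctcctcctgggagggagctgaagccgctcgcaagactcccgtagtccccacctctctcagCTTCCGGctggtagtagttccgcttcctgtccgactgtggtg

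The windows of the genes that fell and the window of COX6B1 both held such matches. NRF1-like letters were found in 20 of the 65 windows (30.8%), against 14.8% of the windows of 11348 genes with a row in the table and 8.09% of all 27305 RefSeq windows. ETS-like letters were found in 20 windows (30.8%), against 18.7% and 10.6%. YY1-like letters were found in 19 windows (29.2%), against 8.72% and 6.07%. An SP1-like motif (GGGCGG), not shown in capitals, was in 39 windows (60%), against 72.1% and 45.1%. All 3 motifs in capitals were thus held by a larger share of OXPHOS windows than of windows in the table, and the SP1-like motif by a smaller one. The windows of ribosomal protein genes held them too. NRF1-like letters were in 20.6% of 68 windows of mitochondrial and 11.9% of 67 windows of cytosolic ribosomal proteins, ETS-like letters in 42.6% and 34.3%, and YY1-like letters in 29.4% and 13.4%, so the ETS-like share was larger there than in the OXPHOS windows and the YY1-like share was much the same in the mitochondrial ones. The median log2 fold change of the subunits was -0.38 with and -0.40 without NRF1-like letters, -0.43 with and -0.36 without ETS-like letters, and -0.47 with and -0.37 without YY1-like letters. For SP1-like letters it was -0.38 with and -0.39 without. Over genes with a row the medians with and without were -0.042 and 0.0027 for NRF1-like letters. They were -0.061 and 0.0060 for ETS-like letters, and -0.065 and 0.0012 for YY1-like letters. Whether the change of the subunits differed by motif was not tested. Matches are a description of these letters, and binding was not measured.

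Most OXPHOS subunits were lower in SB-treated cells. By limma on log2(RPKM + 1), whose p-values were adjusted by Benjamini-Hochberg across the whole table, 69 of the 79 were lower and 2 were higher at an adjusted p below 0.05, where 32.6% of all genes were lower and 33.0% were higher. The median log2 fold change of the 79 was -0.39 against 0.00451 over all genes. Among the subunits called lower, the mean level in SB-treated cells was between 60.1% (UQCR11) and 91.2% (UQCRH) of the control mean, and 20 of them fell by more than 0.5 on the log2 scale. The 2 that were higher were COX6B1 and UQCRHL. The 8 that did not pass the test were NDUFA2, NDUFB2, NDUFB3, NDUFS4, SDHC, NDUFA4L2, ATP5E and ATP5G2. A fall measured in bulk RNA does not tell fewer cells of a type from less RNA per cell.

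**Figure D1:**
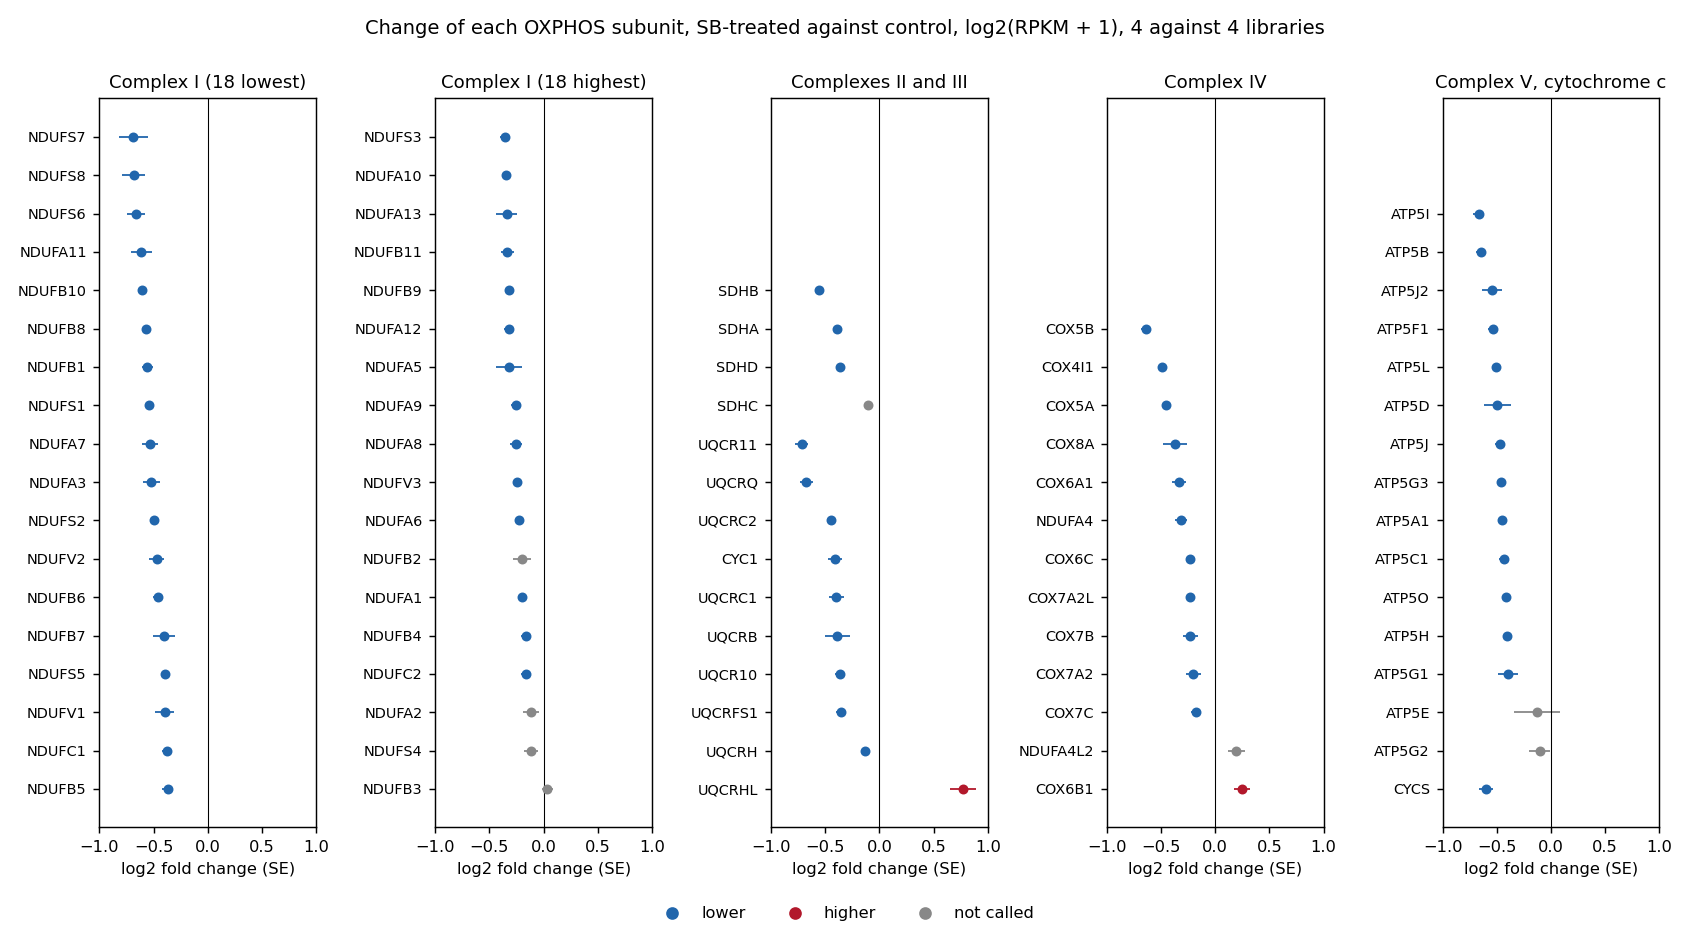
Log2 fold change of each of the 79 genes (x axis, log2(RPKM + 1) scale, SB-treated against control) with its standard error as a bar, ordered within each complex. Blue points are genes called lower (69), red points genes called higher (2) and grey points genes that did not pass the test (8), from 4 libraries a group.

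The fall was present in every SB-treated replicate. The 79 genes held a share of the recovered reads, which are those on genes with a row. It was 0.901, 0.966, 0.976 and 0.953% in control replicates 1 to 4 and 0.751, 0.758, 0.755 and 0.759% in SB-treated replicates 1 to 4, so the groups did not overlap. The summed level fell from 8951 ± 369.6 to 6769 ± 39.9 RPKM (mean ± SD, n = 4 each). Control replicate 1 had the lowest share of the controls and was still above every SB-treated replicate. Relative to the control mean, the median log2 ratio of the 79 genes was -0.10, 0.02, 0.04 and 0.00450 in the controls and -0.39, -0.41, -0.41 and -0.39 in the SB-treated replicates. Values of single genes did not overlap between groups in 65 of the 69 subunits called lower and in both that were higher, where 30.5% of all genes were lower and 31.0% higher without overlap. For each of these genes the exact two-sided permutation p was 0.0286, the smallest that 4 against 4 allows.

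**Figure D2:**
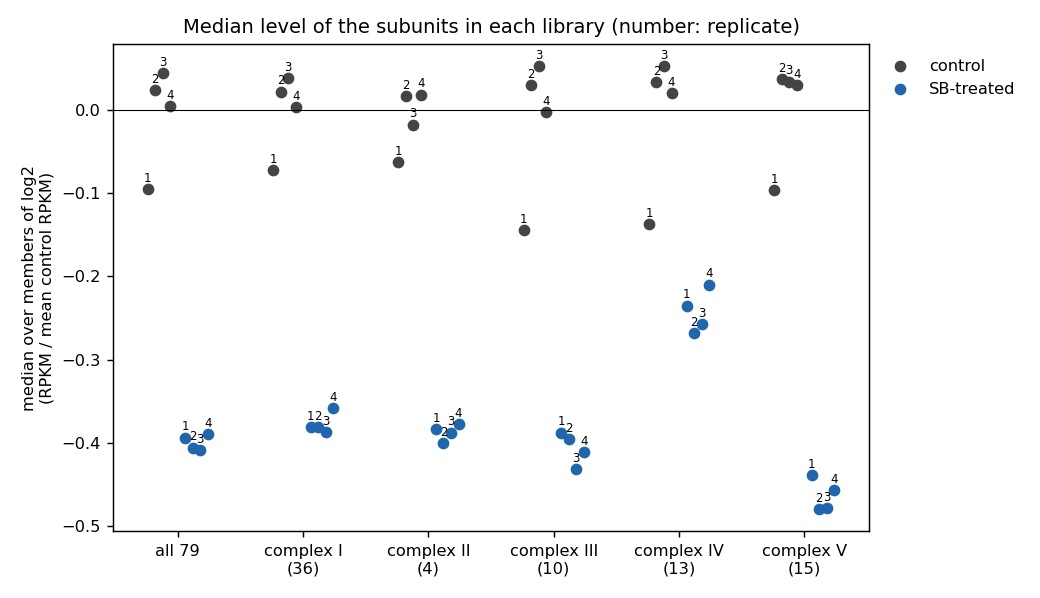
Median over the genes of each complex (number of genes in brackets) of the log2 ratio of RPKM to the mean of the 4 controls (y axis), 1 point per library with its replicate number. All SB-treated replicates (blue) lie below all controls (grey) in each of the 5 complexes, the gap is smallest in complex IV, and control replicate 1 is the lowest control in each.

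Control replicate 1 stood apart in these genes too. It was the lowest of the controls in 48 and the highest in 24 of the 79 genes. Its gap to the nearest control, as a share of the range of the 4 controls, was past the critical value of Dixon's test in 20 genes (17 below, 3 above), against 0 genes for each of the other 3 controls. Without it, 74 subunits were lower and 2 higher, and the median log2 fold change was -0.40, where 37.9% of all genes were then lower. The 5 genes that passed the test without this library, but not with all 8, were NDUFA2, NDUFB2, SDHC, ATP5E and ATP5G2.

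Length and abundance moved with the changes as well. The counted length of the 79 genes had a median of 975 bases against 3340 for all genes. When all rows were split into 5 equal bins, 49.5% of the shortest bin and 63.6% of the most abundant bin were lower with SB. Among rows in both the shortest and the most abundant bin, 76.1% of the 965 genes outside the OXPHOS list were lower with a median of -0.30, and 52 of the 58 OXPHOS genes there (89.7%) were lower with a median of -0.40. When each library was corrected for length and GC content, 55 of the 79 genes were lower and 6 were higher, and the median was -0.21, where 37.5% of all genes were lower and 33.4% higher. The 6 were COX6B1, NDUFA4L2, NDUFB3, NDUFS4, UQCRH and UQCRHL. From below 0 to above 0 went 13 genes, 8 of them called lower without the correction. The correction took length and GC content together, and the share of a change that goes with either was not tested.

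**Figure D3:**
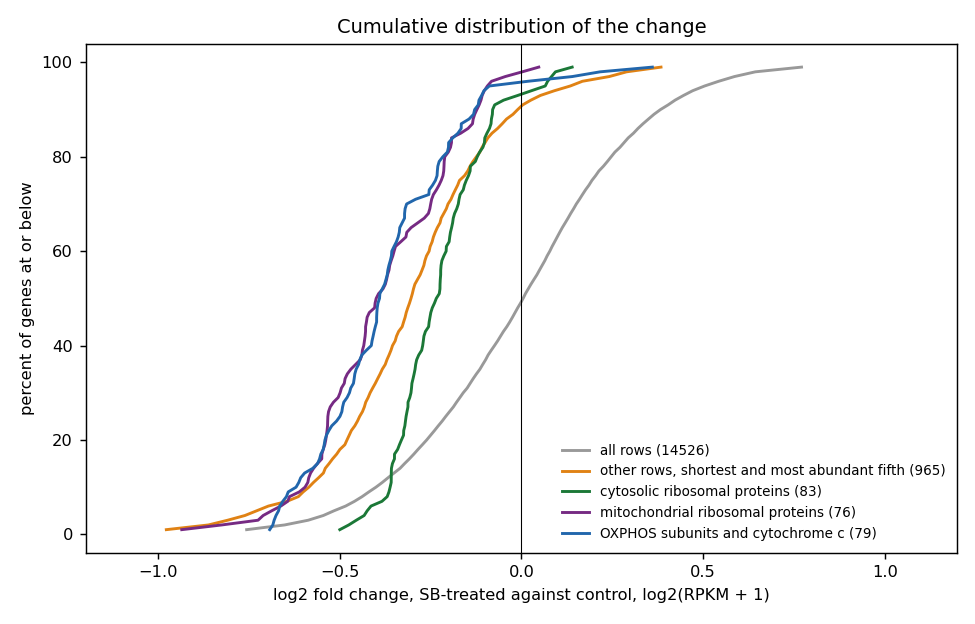
Percent of genes (y axis) at or below a log2 fold change (x axis, log2(RPKM + 1), SB-treated against control) for all rows, for the other short and abundant rows, for 2 groups of ribosomal protein genes and for the 79 OXPHOS genes. At its median (-0.39) the OXPHOS curve lies near that of the mitochondrial ribosomal proteins (-0.40) and left of the other short and abundant rows (-0.30) and of all rows (0.00451). In the lowest tail it lies right of the other short and abundant rows (-0.67 against -0.73 at 5%) and, at 1%, right of all rows as well (-0.69 against -0.76).

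Ribosomal protein genes are further sets of short, abundant transcripts. The 76 mitochondrial ribosomal proteins, which translate the mitochondrially encoded subunits, were lower in 70 and higher in 0 (median -0.40), and in limma without adjustment (p below 0.05) and in voom 0 were higher as well. Of the 83 cytosolic ribosomal proteins 60 were lower and 1 was higher (median -0.23), where 32.6% of all genes were lower and 33.0% higher. After the length and GC correction the medians were -0.25 and -0.05 beside -0.21 for the OXPHOS genes. Of the 76 mitochondrial ones 59 were then lower and 2 higher, and of the 83 cytosolic ones 30 were lower and 10 higher. Over all genes 37.5% were then lower and 33.4% higher. The OXPHOS median was close to that of the mitochondrial ribosome, and the difference from either group was not tested.

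**Figure D4:**
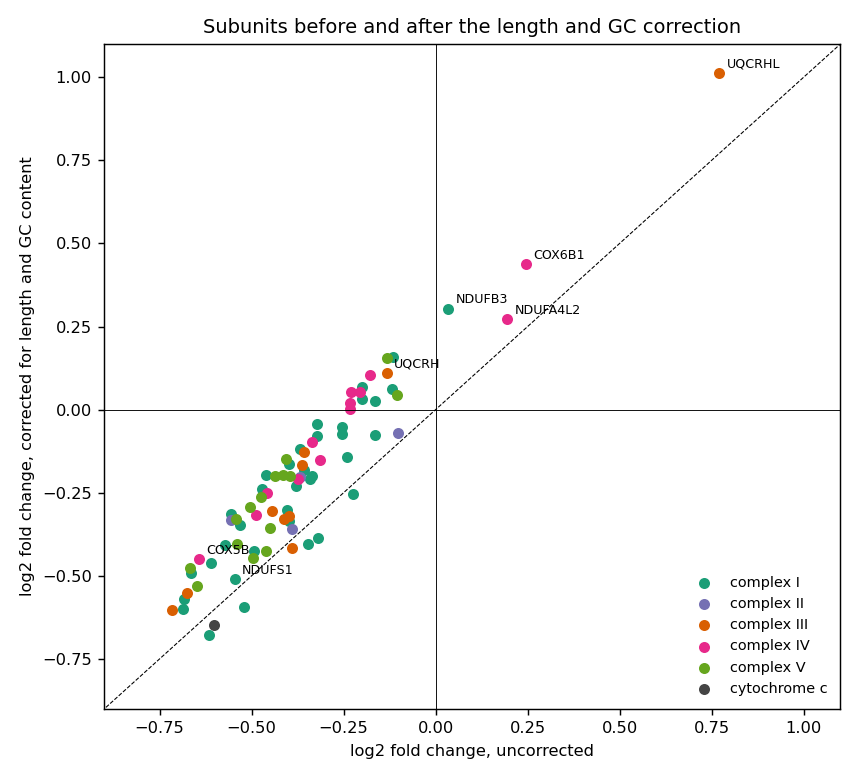
Log2 fold change of each of the 79 genes without (x axis) and with (y axis) the correction for gene length and GC content, coloured by complex, with the dashed line where both are equal. Most points lie above the line, and 17 genes are above 0 after the correction, 7 of them in complex IV (median 0.0011) and 6 in complex I.

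In complex I, 32 of the 36 subunits were lower, where 32.6% of all genes were lower, and the median log2 fold change was -0.36. The number higher in limma was 0, where 33.0% of all genes were higher. It was also 0 at an unadjusted p below 0.05 and with voom on the recovered reads, for which the all-gene share is not given here. All 7 core subunits of the hydrophilic arm, which carry flavin mononucleotide and the iron-sulfur clusters, were lower with a median of -0.49, and 25 of the 29 other subunits were lower with a median of -0.34. After the length and GC correction 26 of the 36 were lower, 2 were higher and the median was -0.22. Over all genes 37.5% were then lower and 33.4% higher. The corrected median of the core subunits was -0.42, with 7 of 7 lower, and that of the others -0.20, with 19 of 29 lower. In complex III the 2 catalytic subunits UQCRFS1 and CYC1 had a median of -0.38 and the 8 others -0.39 (corrected -0.23 and -0.31). In complex V the 10 subunits listed as core had -0.44 and the 5 others -0.50 (corrected -0.28 and -0.29). A larger fall of core subunits was thus seen in complex I alone of these 3. The difference between core and other subunits was not tested.

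The largest fall of the complex was in NDUFS7, a core subunit near the ubiquinone site. Its level was 56.3, 78.6, 84.8 and 67.2 RPKM in control replicates 1 to 4 and 35.3, 46.9, 45.7 and 48.03 RPKM in SB-treated replicates 1 to 4. The highest SB-treated value was below the lowest control, and SB-treated replicate 1 was the lowest of all. The mean went from 71.7 ± 12.6 to 43.99 ± 5.87 RPKM (mean ± SD, n = 4 each), with a log2 fold change of -0.69 ± 0.13 (SE, adjusted p = 0.00134). NDUFS8, the core subunit with a pair of iron-sulfur clusters on the same electron path, was at 84.1, 114, 122 and 107 RPKM in control replicates 1 to 4 and 58.5, 69.2, 66.9 and 67.9 RPKM in SB-treated replicates 1 to 4. The groups did not overlap, with control replicate 1 the lowest control. The log2 fold change was -0.68 ± 0.11 (SE, adjusted p = 0.000332). NDUFS1, the largest core subunit, was at 51.4, 51.99, 51.9 and 49.8 RPKM in control replicates 1 to 4 and 35.2, 34.01, 34.3 and 35.6 RPKM in SB-treated replicates 1 to 4. These controls lay close together and far above the SB-treated replicates. On average it went from 51.3 ± 1.01 to 34.8 ± 0.770 RPKM (mean ± SD, n = 4 each), with a log2 fold change of -0.55 ± 0.03 (SE, adjusted p = 1.21e-06), and after the correction it was -0.51.

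NDUFV1 binds NADH and flavin mononucleotide, so it is where electrons enter. It was at 81.1, 106, 109.9 and 103 RPKM in control replicates 1 to 4 and 76.5, 77.4, 73.5 and 72.8 RPKM in SB-treated replicates 1 to 4. Nearest to the SB-treated replicates was control replicate 1, without overlap. The log2 fold change was -0.40 ± 0.08 (SE, adjusted p = 0.00228), and -0.49 without that library. The smallest called falls of complex I were in the accessory membrane-arm subunits NDUFC2 and NDUFB4. NDUFC2 was at 10.7, 11.5, 11.9 and 11.5 RPKM in control replicates 1 to 4 and 10.3, 9.499, 10.5 and 9.91 RPKM in SB-treated replicates 1 to 4. The gap between groups was small and free of overlap, with a log2 fold change of -0.17 ± 0.04 (SE, adjusted p = 0.00773). The call was lost after the correction (-0.08, adjusted p = 0.189) and without TMM factors (-0.07, adjusted p = 0.198). Its annotated span overlaps a readthrough gene (NDUFC2-KCTD14) on the same strand, so its reads may be shared. NDUFB4 was at 40.98, 38.6, 36.6 and 38.5 RPKM in control replicates 1 to 4 and 35.3, 34.4, 33.7 and 33.9 RPKM in SB-treated replicates 1 to 4. Groups did not overlap and the log2 fold change was -0.17 ± 0.04 (SE, adjusted p = 0.00473), but it was 0.03 after the correction (adjusted p = 0.457).

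The other complex I subunits called lower had log2 fold changes between -0.66 (NDUFS6) and -0.20 (NDUFA1), with NDUFA11 (-0.61), NDUFB10 (-0.61) and NDUFB8 (-0.57) near the lower end. In NDUFA5, which had -0.32 (adjusted p = 0.0348), the call was lost without control replicate 3 or SB-treated replicate 2, 3 or 4 (between -0.34 and -0.29, adjusted p between 0.0537 and 0.0855), and the value was -0.18 without control replicate 1 (adjusted p = 0.00543). In NDUFA13 the groups overlapped although it passed the test (-0.34, adjusted p = 0.0108). NDUFB3, an accessory subunit, was the only complex I subunit with a positive value (0.03, adjusted p = 0.59), and after the correction it was higher (0.30, adjusted p = 3.51e-05). NDUFS4, an accessory subunit of the NADH-binding module, had -0.12 (adjusted p = 0.124) and 0.16 after the correction (adjusted p = 0.00729). NDUFA2 (-0.12) and NDUFB2 (-0.20) passed the test without control replicate 1, at -0.20 and -0.30. NDUFB2 also passed with the replicate number as a block (adjusted p = 0.0275) and, narrowly, with median-of-ratios scaling (adjusted p = 0.0498). NDUFA2 and NDUFB2 were both above 0 after the correction without passing the test. NDUFA1, NDUFA8, NDUFA9 and NDUFA12 lost the call after the correction, at values between -0.07 and 0.07.

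In complex II, which is wholly nuclear encoded, 3 of the 4 subunits were lower, where 32.6% of all genes were lower. The median of the 4 subunits was -0.38 (-0.27 after the correction). SDHA is the flavoprotein that oxidises succinate. It was at 48.1, 52.2, 55.1 and 52.5 RPKM in control replicates 1 to 4 and 39.4, 39.5, 39.5 and 39.1 RPKM in SB-treated replicates 1 to 4. All 4 SB-treated replicates lay within a narrow range below the lowest control, and the log2 fold change was -0.39 ± 0.04 (SE, adjusted p = 3.57e-05). SDHB carries the iron-sulfur clusters and was at 101, 91.9, 91.8 and 89.3 RPKM in control replicates 1 to 4 and 63.9, 62.8, 61.99 and 64.1 RPKM in SB-treated replicates 1 to 4. Here control replicate 1 was the highest control, and the groups did not overlap. The group means moved from 93.4 ± 4.93 to 63.2 ± 0.995 RPKM (mean ± SD, n = 4 each), the largest fall of the complex, with a log2 fold change of -0.55 ± 0.04 (SE, adjusted p = 3.89e-06). SDHD, a membrane anchor, was at 58.3, 60.5, 58.5 and 60.3 RPKM in control replicates 1 to 4 and 46.04, 44.8, 45.7 and 46.7 RPKM in SB-treated replicates 1 to 4. Its groups were well apart and the log2 fold change was -0.37 ± 0.03 (SE, adjusted p = 8.96e-06). The other anchor, SDHC, went from 43.8 ± 2.19 to 40.7 ± 0.887 RPKM (mean ± SD, n = 4 each), with overlapping groups and a log2 fold change of -0.10 ± 0.04 (SE, adjusted p = 0.0549), and passed the test without control replicate 1 (-0.13, adjusted p = 0.00241).

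In complex III, 9 of the 10 genes were lower and 1 was higher, with a median of -0.39 (-0.31 after the correction, with 8 lower and 2 higher). Over all genes 32.6% were lower and 33.0% higher, and after the correction 37.5% and 33.4%. UQCR11 is a small accessory subunit and had the largest fall of the 79 genes. It was at 61.2, 71.1, 74.8 and 69.04 RPKM in control replicates 1 to 4 and 39.7, 43.00, 41.9 and 41.4 RPKM in SB-treated replicates 1 to 4. The SB-treated replicates were all below the lowest control. Mean levels went from 69.03 ± 5.74 to 41.5 ± 1.38 RPKM (mean ± SD, n = 4 each), with a log2 fold change of -0.72 ± 0.06 (SE, adjusted p = 6.46e-06). Its annotated span overlaps another coding gene on the same strand, so reads may be shared there. UQCRQ, a further small subunit, was at 58.3, 68.1, 72.4 and 66.6 RPKM in control replicates 1 to 4 and 41.3, 40.6, 41.8 and 40.3 RPKM in SB-treated replicates 1 to 4. Again the groups were far apart, with a log2 fold change of -0.68 ± 0.06 (SE, adjusted p = 9.20e-06).

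The catalytic subunits also fell. UQCRFS1, the Rieske iron-sulfur protein, was at 80.99, 79.5, 79.8 and 78.1 RPKM in control replicates 1 to 4 and 64.1, 59.7, 59.2 and 64.97 RPKM in SB-treated replicates 1 to 4. The controls lay close together and above the SB-treated replicates, and the log2 fold change was -0.36 ± 0.04 (SE, adjusted p = 4.28e-05). CYC1 is cytochrome c1, which hands electrons to cytochrome c. It was at 106, 134, 119 and 129.6 RPKM in control replicates 1 to 4 and 90.03, 94.2, 88.8 and 92.3 RPKM in SB-treated replicates 1 to 4. Again control replicate 1 was the lowest control, without overlap, and the log2 fold change was -0.41 ± 0.07 (SE, adjusted p = 0.000428). The core proteins UQCRC1 and UQCRC2 had -0.40 and -0.44. CYCS, the mobile carrier cytochrome c itself, was at 62.6, 51.6, 53.3 and 49.5 RPKM in control replicates 1 to 4 and 35.6, 34.6, 35.5 and 35.4 RPKM in SB-treated replicates 1 to 4. In this gene control replicate 1 was the highest control. Levels went from 54.3 ± 5.78 to 35.3 ± 0.449 RPKM (mean ± SD, n = 4 each), with a log2 fold change of -0.60 ± 0.06 (SE, adjusted p = 3.25e-05) and -0.65 with the correction.

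UQCRH and UQCRHL encode near-identical hinge proteins, and UQCRHL is an intronless copy of UQCRH. UQCRH was at 184, 194, 202 and 192 RPKM in control replicates 1 to 4 and 175, 177, 177 and 174 RPKM in SB-treated replicates 1 to 4. The groups did not overlap, but the fall was the smallest called among the 79, -0.13 ± 0.04 (SE, adjusted p = 0.00898), and after the correction the gene was higher at 0.11 (adjusted p = 0.0177). UQCRHL was at 0.524, 1.09, 1.301 and 0.773 RPKM in control replicates 1 to 4 and 1.89, 2.62, 2.06 and 2.44 RPKM in SB-treated replicates 1 to 4. Every SB-treated replicate was above every control, at a level far below that of UQCRH. The mean went from 0.921 ± 0.342 to 2.25 ± 0.335 RPKM (mean ± SD, n = 4 each), with a log2 fold change of 0.77 ± 0.12 (SE, adjusted p = 0.0004). It had a mean of 35 reads over the 8 libraries, the fewest of the 79 genes, and reads of the copies cannot be fully told apart, so this rise is uncertain.

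In complex IV, 11 of the 13 genes were lower and 1 was higher, where 32.6% of all genes were lower and 33.0% higher. The median of the complex was -0.23, the smallest fall of the 5 complexes. Groups did not overlap in 8 of the 11, where 30.5% of all genes were lower without overlap. With library sizes not scaled by TMM the median was -0.13. The length and GC correction left a median of 0.0011, with 4 lower and 2 higher, so the direction of the complex as a whole depended on the correction. Over all genes 37.5% were then lower and 33.4% higher. The 4 that stayed lower with the correction were COX5B, COX4I1, COX5A and COX8A.

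COX5B, which lies on the matrix side of the enzyme, was at 218, 231, 240.3 and 218 RPKM in control replicates 1 to 4 and 143, 152, 147 and 138 RPKM in SB-treated replicates 1 to 4. All SB-treated replicates were below all controls. The group means moved from 227 ± 10.6 to 145 ± 6.09 RPKM (mean ± SD, n = 4 each), with a log2 fold change of -0.64 ± 0.05 (SE, adjusted p = 2.79e-06). COX4I1, the ubiquitous isoform of subunit 4, was at 291, 312, 316 and 301 RPKM in control replicates 1 to 4 and 218, 220.3, 215 and 214 RPKM in SB-treated replicates 1 to 4. Its groups were far apart, and the log2 fold change was -0.49 ± 0.04 (SE, adjusted p = 3.59e-06). Its partner COX5A had -0.46. The lung and hypoxia isoform COX4I2 has no row in the table.

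COX6B1, a subunit on the intermembrane side that joins the monomers of the dimer, went the other way. It was at 71.6, 93.04, 88.6 and 89.7 RPKM in control replicates 1 to 4 and 101, 99.6, 100.3 and 104 RPKM in SB-treated replicates 1 to 4. Every SB-treated replicate was above every control, and control replicate 1 was the lowest. Mean levels went from 85.7 ± 9.62 to 101 ± 2.12 RPKM (mean ± SD, n = 4 each), with a log2 fold change of 0.24 ± 0.07 (SE, adjusted p = 0.0152). The rise was 0.16 without control replicate 1 (adjusted p = 0.000709) and 0.44 after the correction (adjusted p = 1.67e-05).

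The liver-type and ubiquitous isoforms of the small subunits were the ones present. COX6A1 was at 312, 384, 379 and 371 RPKM in control replicates 1 to 4 and 278, 294, 283 and 286 RPKM in SB-treated replicates 1 to 4. Control replicate 1 was the lowest control, without overlap, and the log2 fold change was -0.33 ± 0.06 (SE, adjusted p = 0.00121). COX6A1 lost the call after the correction (-0.10, adjusted p = 0.149). COX8A was at 179, 269.5, 248 and 261 RPKM in control replicates 1 to 4 and 178, 182, 185 and 185 RPKM in SB-treated replicates 1 to 4. Control replicate 1 lay among the SB-treated replicates and the other 3 controls above them, and the log2 fold change was -0.37 ± 0.11 (SE, adjusted p = 0.0148), or -0.51 without that library. COX7A2 was at 98.01, 119.8, 125 and 116 RPKM in control replicates 1 to 4 and 103, 97.5, 96.4 and 99.8 RPKM in SB-treated replicates 1 to 4. Control replicate 1 lay within the SB-treated range, and the log2 fold change was -0.20 ± 0.07 (SE, adjusted p = 0.0245). Without control replicate 2, 3 or 4 or SB-treated replicate 2 or 3 it no longer passed the test (between -0.20 and -0.16, adjusted p between 0.0555 and 0.0694). COX7A2L, which takes part in supercomplexes of complexes III and IV, was at 94.1, 92.8, 96.6 and 91.2 RPKM in control replicates 1 to 4 and 80.00, 77.8, 79.6 and 81.1 RPKM in SB-treated replicates 1 to 4. The groups did not overlap, and the log2 fold change was -0.23 ± 0.03 (SE, adjusted p = 0.000206).

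COX7C was the most abundant member of the complex, at 432, 479.9, 489.9 and 499 RPKM in control replicates 1 to 4 and 433, 417, 411 and 416 RPKM in SB-treated replicates 1 to 4. Control replicate 1 fell within the SB-treated range, and the log2 fold change was -0.18 ± 0.05 (SE, adjusted p = 0.00885). COX7B was at 229, 181, 188 and 185 RPKM in control replicates 1 to 4 and 166, 164, 164 and 169.9 RPKM in SB-treated replicates 1 to 4. Control replicate 1 was far above the other controls, the groups did not overlap, and the log2 fold change was -0.23 ± 0.07 (SE, adjusted p = 0.014), or -0.15 without that library. After the correction COX7A2 (0.05), COX7B (0.05), COX7C (0.11) and COX7A2L (0.0011) no longer passed the test and had positive values. With the correction and control replicate 1 left out COX7B was called higher (0.11, adjusted p = 0.00221). The muscle or testis isoforms COX6A2, COX6B2, COX7A1, COX7B2 and COX8C have no row.

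NDUFA4, a subunit of complex IV, was at 44.8, 53.9, 48.5 and 52.4 RPKM in control replicates 1 to 4 and 39.5, 40.4, 39.4 and 40.1 RPKM in SB-treated replicates 1 to 4. The SB-treated replicates lay below all controls, with a log2 fold change of -0.31 ± 0.06 (SE, adjusted p = 0.000758). NDUFA4 lost the call after the correction (-0.15, adjusted p = 0.169). Its paralogue NDUFA4L2, a known hypoxia-induced gene, was near the floor of the table, at 1.404, 1.84, 2.003 and 1.36 RPKM in control replicates 1 to 4 and 1.95, 2.12, 2.19 and 1.83 RPKM in SB-treated replicates 1 to 4. These groups overlapped, and the log2 fold change was 0.19 ± 0.08 (SE, adjusted p = 0.0565). It passed the test without control replicate 2 (0.23, adjusted p = 0.0445), without control replicate 3 (0.26, adjusted p = 0.0151), with the replicate number as a block (adjusted p = 0.00815), without TMM factors (0.26, adjusted p = 0.017) and after the correction (0.27, adjusted p = 0.00214).

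**Figure D5:**
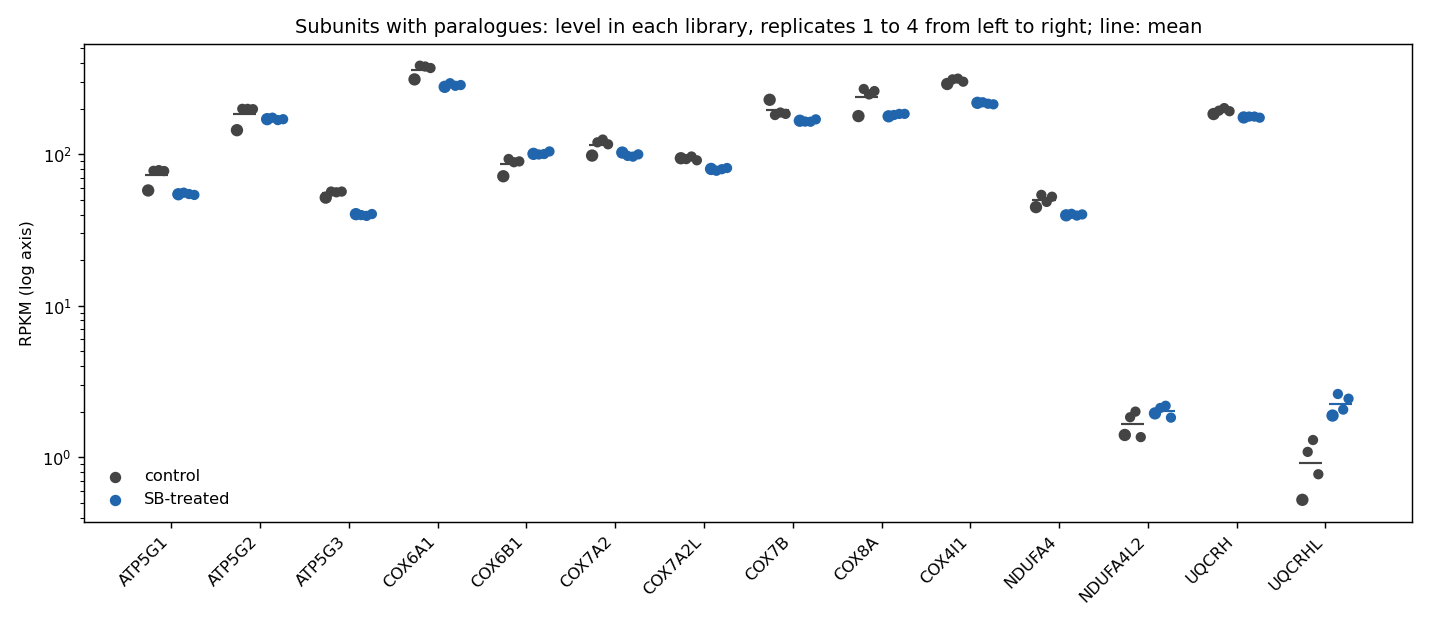
RPKM of 14 subunits with paralogues in each library (y axis, log scale), controls in grey and SB-treated in blue, replicates 1 to 4 from left to right with the larger point for replicate 1 and a line at the mean. The SB-treated points lie below the controls in ATP5G1, ATP5G3 and COX4I1, above them in COX6B1 and UQCRHL, and control replicate 1 sits apart from the other controls in ATP5G1, ATP5G2, COX8A and COX7B.

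In complex V, 13 of the 15 subunits were lower and 0 were higher in limma, where 32.6% of all genes were lower and 33.0% higher. Also at an unadjusted p below 0.05 or with voom 0 were higher, and the all-gene share there is not given here. The median of -0.46 was the largest fall of the 5 complexes. After the correction it was -0.29, with the count of lower subunits at 13 again, where 37.5% of all genes were lower. Complex III then had the largest fall (-0.31). Differences between complexes were not tested. ATP5B, the catalytic beta subunit and the most abundant of the 79 genes per length, was at 569.9, 637, 631 and 635 RPKM in control replicates 1 to 4 and 382, 398, 394 and 402 RPKM in SB-treated replicates 1 to 4. The SB-treated replicates were all far below the controls. Levels went from 618 ± 32.4 to 394 ± 8.62 RPKM (mean ± SD, n = 4 each), with a log2 fold change of -0.65 ± 0.04 (SE, adjusted p = 2.15e-06). ATP5A1, the alpha subunit beside it, was at 214, 232, 233 and 232 RPKM in control replicates 1 to 4 and 168, 166, 165 and 167 RPKM in SB-treated replicates 1 to 4. Control replicate 1 was the lowest control, without overlap, and the log2 fold change was -0.45 ± 0.04 (SE, adjusted p = 7.15e-06).

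The largest fall of the complex was in ATP5I, the small membrane subunit e that helps the enzyme form dimers. It was at 153, 174, 176 and 173 RPKM in control replicates 1 to 4 and 109.7, 105, 102 and 107 RPKM in SB-treated replicates 1 to 4. The highest SB-treated value was below the lowest control. On average it went from 169 ± 10.8 to 106 ± 3.47 RPKM (mean ± SD, n = 4 each), with a log2 fold change of -0.67 ± 0.05 (SE, adjusted p = 3.96e-06). ATP5H, subunit d of the peripheral stalk, was at 154, 162, 162 and 161 RPKM in control replicates 1 to 4 and 120.2, 118, 121 and 122 RPKM in SB-treated replicates 1 to 4. The groups were apart, and the log2 fold change was -0.41 ± 0.03 (SE, adjusted p = 6.34e-06). Other stalk subunits had -0.54 (ATP5F1), -0.47 (ATP5J) and -0.41 (ATP5O), and the gamma subunit ATP5C1 had -0.44. ATP5E, the epsilon subunit, was at 1.499, 3.53, 4.399 and 3.68 RPKM in the controls and 3.02, 2.12, 3.07 and 2.89 RPKM in the SB-treated replicates, by far the lowest level of the complex. Groups overlapped, with a log2 fold change of -0.13 ± 0.21 (SE, adjusted p = 0.598), and it passed the test without control replicate 1 (-0.37, adjusted p = 0.00618).

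ATP5G1, ATP5G2 and ATP5G3 encode the same mature subunit c, the ring of the rotor, with different import sequences. ATP5G1 was at 57.7, 77.7, 78.6 and 77.5 RPKM in control replicates 1 to 4 and 54.5, 55.8, 54.6 and 53.9 RPKM in SB-treated replicates 1 to 4. Control replicate 1 was close to the SB-treated replicates and the other 3 controls were far above, and the log2 fold change was -0.40 ± 0.09 (SE, adjusted p = 0.00334). ATP5G3 was at 51.7, 56.7, 56.1 and 56.7 RPKM in control replicates 1 to 4 and 40.2, 39.7, 39.2 and 40.3 RPKM in SB-treated replicates 1 to 4. All SB-treated replicates were below all controls, with a log2 fold change of -0.46 ± 0.04 (SE, adjusted p = 7.16e-06). ATP5G2 had the highest level of these genes, at 144, 199, 199 and 198 RPKM in control replicates 1 to 4 and 170.4, 174, 168 and 170.3 RPKM in SB-treated replicates 1 to 4. Here control replicate 1 was below every SB-treated replicate and the other 3 controls were above them. The log2 fold change was -0.10 ± 0.10 (SE, adjusted p = 0.363), and -0.22 without control replicate 1 (adjusted p = 2.81e-05), so the call on ATP5G2 rested on that library. Whether the genes of subunit c differed in their response was not tested.

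The 4 rows that hold no structural subunit did not share one direction. ATP5S, now named DMAC2L, rose with a log2 fold change of 0.20 ± 0.05 (SE, adjusted p = 0.00452). ATP5SL, now DMAC2, had -0.14 ± 0.04 (SE, adjusted p = 0.01), and the call was lost after the correction (-0.06, adjusted p = 0.068) and without TMM factors (-0.04, adjusted p = 0.385). The antisense NDUFB2-AS1 rose from 1.39 ± 0.0357 to 1.89 ± 0.147 RPKM (mean ± SD, n = 4 each), with a log2 fold change of 0.27 ± 0.04 (SE, adjusted p = 0.000312), and its sense partner NDUFB2 did not pass the test. NDUFA6-AS1, now named NDUFA6-DT, lies on the other strand beside NDUFA6 and does not overlap it. It had 0.04 ± 0.03 (SE, adjusted p = 0.241). It was called higher with a pseudocount of 0.1 (0.18, adjusted p = 0.00945) and with voom (0.28, adjusted p = 0.0325), and lower after the correction (-0.15, adjusted p = 0.00657). The library kit marks strand, but the strand setting of the counting is not given in the sources used here. Reads of genes that overlap on opposite strands may therefore be mixed. Of the 79 genes, 33 overlap another coding gene on either strand (28 called lower, median -0.39) and 46 do not (41 lower, 2 higher, median -0.39). Besides NDUFC2 and UQCR11, the genes SDHA, SDHD and COX6A1 overlap a coding gene on the same strand, so their reads may be shared too. NDUFA4L2, which is near the floor, overlaps SHMT2 on the other strand.

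Assembly factors build the complexes without being part of them. Of the 54 with a row, 41 (75.9%) were lower and 3 were higher, with a median of -0.25 (-0.14 after the correction). Over all genes 32.6% were lower and 33.0% higher, and 76.1% of the other short and abundant rows were lower. The factors are no matched set, with a median of 1742.5 bases and 21.0 RPKM in the controls, against 1282 bases and 59.1 RPKM for those rows. Whether the factors differ from such rows was not tested. For complex I 15 of 16 were lower, with the largest falls in TMEM126B (-0.81) and NDUFAF3 (-0.80). TMEM126B went from 42.6 ± 4.86 to 23.8 ± 0.614 RPKM (mean ± SD, n = 4 each). For complex II 2 of 4 were lower, SDHAF3 (-0.54) and SDHAF4 (-0.33). For complex III 4 of 6 were lower, TTC19 (-0.38) first, and UQCC1 rose by 0.42, from 17.1 ± 0.660 to 23.2 ± 0.933 RPKM (mean ± SD, n = 4 each). For complex IV 18 of 24 were lower, with CMC2 (-0.66) and COX18 (-0.51) the lowest, and COA3 (0.24) and PET100 (0.19) rose. For complex V 2 of 4 were lower, TMEM70 (-0.19) and ATPAF1 (-0.13). After the length and GC correction 31 of 53 assembly factors were lower and 6 were higher, where 37.5% of all genes were lower and 33.4% higher. By complex, 12 of 16 were then lower for complex I, 1 of 4 for complex II, 3 of 6 for complex III and 15 of 24 for complex IV. TMEM70 (-0.10, adjusted p = 0.077), ATPAF1 (-0.0067, adjusted p = 0.828) and SDHAF4 (-0.06, adjusted p = 0.476) lost the call, and the other named factors kept theirs.

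Of 16 regulators of OXPHOS genes with a row, 10 were lower and 2 were higher (median -0.23), where 32.6% of all genes were lower and 33.0% higher. The largest falls were in TFB1M (-0.60) and TFB2M (-0.57), which belong to the mitochondrial transcription and ribosome machinery, and the rises were in ESRRA (0.28), an orphan nuclear receptor, and TEFM (0.19), a mitochondrial elongation factor. TFB1M went from 18.7 ± 0.948 to 12.02 ± 0.270 RPKM (mean ± SD, n = 4 each), and ESRRA went from 11.6 ± 1.802 to 14.2 ± 0.889 RPKM (mean ± SD, n = 4 each). Of the factors whose letters were searched in the promoters, NRF1 had -0.13 and was called lower (adjusted p = 0.0217), a call lost without TMM factors (-0.03, adjusted p = 0.5) and without control replicate 2 or SB-treated replicate 4 (adjusted p = 0.057 and 0.0665). GABPA (-0.21, adjusted p = 0.0602) and YY1 (0.01, adjusted p = 0.87) did not pass the test. GABPA was at 38.3 RPKM in control replicate 1 and between 28.04 and 28.7 RPKM in the other controls. Without that library it was called lower (-0.11, adjusted p = 0.00492) and YY1 was called higher (0.09, adjusted p = 0.0358). GABPA was also lower after the correction (-0.24, adjusted p = 0.00162), with the replicate number as a block (adjusted p = 0.0288), with voom (adjusted p = 0.0447) and without control replicate 4 (adjusted p = 0.049). For all 16 regulators the correction gave 12 lower and 3 higher (median -0.27), where 37.5% of all genes were lower and 33.4% higher. These factors were measured as RNA only.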

How the data were processed

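RNA-seq of 4 control and 4 SB-treated cultures (10 mM for 24 h) was analysed. Per the submitters' processing notes, the authors mapped the reads to hg38 with TopHat2 2.1.0, counted them per gene with featureCounts 1.5.0 and used edgeR 3.16.5. The authors removed genes with few reads and normalised by TMM. RPKM values were deposited by the authors for 14526 genes in each of the 8 libraries. Columns of the authors' own comparison (log2 fold change, mean log2 CPM, p-value and FDR) were not used, and 0 columns of per-sample values were left unused. The strand setting of the counting is not given in the sources used here.

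Values of 100% of the genes could be turned back into whole reads (largest distance from a whole number 7.02e-05 reads), between 36990091 and 44878446 per library, and 76 of the 79 subunits had over 1000 reads per library on average. The main test was limma 3.58.1 (lmFit, eBayes) in R 4.3.3 on log2(RPKM + 1), without further filter, with Benjamini-Hochberg adjustment over all 14526 rows and a threshold of 0.05. The pseudocount of 1 understates the change of low genes. For single genes an exact two-sided permutation test was added. The script was tested on simulated data. Because members are not replicates, lists were described by counts and medians beside those of all genes, with no test over the list. Tables and plots were made with Python 3.11.15.

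Samples were grouped by their titles, whose replicate numbers do not say whether cultures were handled together. Alternatives were a pseudocount of 0.1, a mean of at least 1 RPKM, library sizes without TMM factors, median-of-ratios scaling, voom on the recovered reads, a replicate block, a smooth correction (natural splines with 4 degrees of freedom) for gene length and GC content from GENCODE transcripts (97% of all genes and 100% of the subunits had a value), and leaving out each library. The length and GC correction without control replicate 1 was added after seeing the data. Members, lists and tests were chosen with earlier results of these data known. Genes named with their value in every library were the 2 highest and 2 lowest called log2 fold changes of each complex at a mean of at least 1 RPKM, 9 core subunits and the members of 8 isoform families, and the others are given by range and count, while ATP5E, the genes whose call changed with a setting and the rows that did not pass the test were named after their values were seen. In the lists of assembly factors and regulators, at most 2 rises and 2 falls per list were named, and NRF1, GABPA and YY1 were named for the motif search. A gene of the marker list is not reported here. Promoter windows came from RefSeq (GRCh38.p14), and ChIP-seq data were not analysed here.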

Additional observations from a re-analysis of the deposited data

Results flagged for a closer look

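Among 68 groups of 4 libraries (34 named genes in 2 conditions), 10 held a library whose gap to the nearest other library, divided by the range of the group, was above the critical value of Dixon's test. Chance gives about 1 in 20, or 3.4 of 68, for independent groups. These genes share the same libraries, so a single odd library can set off many of them at once. An excess over chance was therefore not tested. In 8 of the 10 control replicate 1 was the lowest control, with values of 0.931 for ATP5A1, 0.911 for ATP5B, 0.955 for ATP5G1, 0.985 for ATP5G2, 0.879 for ATP5G3, 0.844 for ATP5H, 0.859 for ATP5I and 0.8293 for COX6A1. In COX7B it was the highest control (0.837). In NDUFS7 SB-treated replicate 1 was the lowest of its group (0.841).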

How the results depend on the processing

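The median over the 79 genes was below 0 under each alternative run, and between 67 and 74 genes were lower when a library was left out, with 2 to 3 higher. The share of all genes called lower moved too. It was 32.6% in the main test, 37.9% without control replicate 1 and 37.5% with the length and GC correction. For the other settings this share is not given here, so their counts are not set against it. With a library left out, the medians lay between -0.40 and -0.37 for all, -0.39 and -0.35 for complex I, -0.40 and -0.37 for complex II, -0.41 and -0.37 for complex III, -0.28 and -0.23 for complex IV and -0.48 and -0.45 for complex V. Without TMM factors the median over all genes moved from 0.00393 to 0.109 on the log2 scale, 60 OXPHOS genes were lower (COX7A2, COX7B, COX7C, COX8A, NDUFA13, NDUFA5, NDUFB4, NDUFC2 and UQCRH lost the call) and 4 higher, and the medians were -0.29 for all, -0.26 for complex I, -0.28 for complex II, -0.29 for complex III, -0.13 for complex IV and -0.36 for complex V. With the length and GC correction, and equally when the replicate block was added to it, 6 were higher, and the medians were -0.21 for all, -0.22 for complex I, -0.27 for complex II, -0.31 for complex III, 0.0011 for complex IV and -0.29 for complex V, so that complex III in place of complex V had the largest fall. Direction turned in 13 genes. Of these 8 had been called lower, namely COX7A2 (0.0535), COX7A2L (0.0011), COX7B (0.0535), COX7C (0.11), NDUFB4 (0.0258), UQCRH (0.11), COX6C (0.02) and NDUFA1 (0.07), and UQCRH passed the test as higher (adjusted p = 0.0177, and 0.0233 with the block). The 5 not called before were ATP5E (0.16), ATP5G2 (0.04), NDUFA2 (0.06), NDUFB2 (0.03) and NDUFS4 (0.16), and NDUFS4 passed the test as higher (adjusted p = 0.00729). With the correction and control replicate 1 left out, 7 were higher, the medians were -0.26 for all, -0.24 for complex I, -0.27 for complex II, -0.33 for complex III, -0.0387 for complex IV and -0.30 for complex V, and of the named genes called lower COX7B (0.11), COX7C (0.0407), NDUFB4 (0.0224) and UQCRH (0.0779) were above 0, with COX7B and UQCRH called higher (adjusted p = 0.00221 and 0.0113). The cause of these shifts was not tested.

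The replicate block alone gave 70 lower and 3 higher, with the 69 genes lower without it among them. The additional calls were NDUFB2, lower (adjusted p = 0.0275), and NDUFA4L2, higher (adjusted p = 0.00815). Deviations of same-numbered libraries from their group means had correlations of 0.38, 0.327, 0.173 and -0.16 for replicates 1 to 4. With libraries of other numbers the mean correlations were -0.147, -0.0895, -0.035 and 0.055. The same-numbered value was thus the larger for replicates 1 to 3 and the smaller for replicate 4. Whether the numbers pair the libraries was not tested, and the main test was run without the block. Over the 9 settings other than leaving out a library alone, 269 of 306 values of the 34 named genes kept direction and side of the threshold, 15 lost and 6 gained the call, and 16 turned. Depth limited few genes, since 76 of the 79 had over 1000 reads per library on average.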
